A study of Mus musculus with 23 samples.

Results

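Nlrc4 and the NAIP genes Naip2, Naip5 and Naip6 encode the sensor proteins of 1 inflammasome, and their mRNA levels were followed in mouse bone marrow-derived macrophages, cells grown from bone marrow precursors. The members are 4 named genes of the 55401 in the count table, and all 4 were among the 18083 genes that passed the filter on low counts. They were chosen by their level in each genotype and time, with results of these same 23 libraries known, so their differences are given as sizes with standard errors and no p-value. The cells came from wild-type mice or from mice labelled Selenow knock-out, a deletion of the gene for a small selenoprotein. In each genotype, libraries were made from untreated cells at 0 h and from cells given LPS, the bacterial lipopolysaccharide sensed by TLR4, at 100 ng/ml for 4, 8 or 24 h. Each of the 8 genotype-by-time groups held 3 libraries, and only the 24 h group of the labelled knock-out had 2. The strain, the age of the mice and the way the Selenow deletion was made are not given in the sources used here, nor is whether the libraries of a group came from separate animals or cultures, so the errors measure the spread between libraries. Untreated cells were sampled at 0 h alone, so LPS and time in culture cannot be told apart.

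NAIP proteins are receptors for pieces of bacterial motility and secretion machines that reach the cytosol. Naip5 and Naip6 bind flagellin, Naip2 binds the rod protein of type III secretion systems, and Naip1 binds the needle protein. A NAIP that has bound its ligand opens NLRC4, which then assembles into a ring and activates caspase-1, either directly through its CARD domain or through the adaptor ASC (Pycard). Caspase-1 cleaves pro-interleukin-1 beta, pro-interleukin-18 and gasdermin D, whose pores lyse the cell. In macrophages the transcription factor IRF8 is known to drive transcription of Nlrc4 and several Naip genes, with PU.1 (Spi1), an ETS-family factor, as a common partner.

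The stretches just before the annotated RefSeq starts of the 4 genes are shown because the 3 Naip genes moved together while Nlrc4 did not follow them in one genotype. RefSeq promoters of build GRCm38.p6, the build of the count table, matched all 4 members. All 4 genes lie on the minus strand, and bases are written 5′ to 3′ in the direction of transcription. Bases that the count table's annotation places in an exon were left out. Capitals mark ACTTCCT, the reverse complement of the ETS-family core AGGAAGT.
Nlrc4: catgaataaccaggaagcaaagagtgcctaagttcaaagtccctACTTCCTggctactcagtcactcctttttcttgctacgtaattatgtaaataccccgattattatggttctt
Naip2: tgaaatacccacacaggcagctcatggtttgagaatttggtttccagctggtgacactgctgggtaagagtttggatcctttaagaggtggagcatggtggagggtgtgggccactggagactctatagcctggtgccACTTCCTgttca
Naip5: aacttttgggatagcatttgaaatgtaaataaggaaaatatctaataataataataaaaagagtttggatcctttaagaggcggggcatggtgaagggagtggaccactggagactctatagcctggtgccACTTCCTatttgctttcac
Naip6: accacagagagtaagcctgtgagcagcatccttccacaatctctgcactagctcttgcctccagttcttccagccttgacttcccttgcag
The Nlrc4 stretch is chr17:74459143-74459258, the Naip2 stretch is chr13:100202123-100202272, the Naip5 stretch is chr13:100247337-100247486 and the Naip6 stretch is chr13:100316676-100316766. The Naip6 start of RefSeq lies inside the gene as the count table annotates it, and the Naip5 start lies before it.

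Nlrc4, Naip2 and Naip5 each held the AGGAAGT core on the strand opposite to transcription close to the start, and Naip6 did not hold these letters. In Naip2 the core spans bases -12 to -6 from the start, and in Naip5 bases -19 to -13. Nlrc4 held it at -106 to -100 and again at -10 to -4, the latter within the bases left out as exon. The motif was searched on both strands of windows from 250 bases before to 50 bases after the start, and 9.35% of the 32851 RefSeq windows held it. Naip2 and Naip5 shared an unbroken run of 34 bases that ends with the capitals. The longest run that Nlrc4 shared with a NAIP member before the start was 10 bases, with Naip6. Naip6 itself shared at most 8 bases with Naip2 and 6 with Naip5. The Naip5 and Naip6 windows follow RefSeq starts that differ from the ends of the counted genes, so they may not precede the transcripts counted. The part of these stretches in the levels was not tested. The ETS-IRF composite, GGAA and GAAA with any 2 bases between them, was held by 2.72% of all windows, and the interferon-stimulated response element, GAAA repeated with any 2 bases between, by 3.44%. Both were in none of the 4 windows. The NF-kB consensus, held by 8.46% of windows, matched Naip5 alone, at -218 to -209. These are matches of letters, with no measurement of binding.

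The libraries held 39001456 to 41819953 fragments counted to genes. Selenow, the check of the labels, went against the label in some libraries. Library 13 of the labelled knock-out at 0 h had 106 CPM (fragments of a gene over all fragments counted in the library, on the usual CPM scale and scaled between libraries by TMM) against 103 to 133 in wild-type and 39.4 and 40.8 in the other two labelled knock-out libraries. Libraries 16 and 22 also lay within the wild-type range of their time, and library 19 lay at 260.4 CPM, below the wild-type range of 303 to 327. A deletion that leaves part of the transcript would still give reads, which these gene counts do not resolve. One library of each group, 8 in all, also deviated from its group in a shared way, and these form a second library set that was found in the data and not in the labels. Fits with this set as a term, or split by it, reuse the counts that defined it. Their calls are given to show how results depend on the fit, and nothing further is read from them. All 8 macrophage markers examined, among them Adgre1, Csf1r and Cd68, were detected in every group. Summed neutrophil and precursor markers (8 genes) were at 174 to 175 CPM in labelled knock-out cells at 0 h and at 98.5 to 114 CPM in wild-type, and at 119 to 153 against 69.8 to 88.8 CPM at 4 h. Summed stromal markers (4 genes) reached 66.1 CPM in a labelled knock-out library at 8 h and at most 8.37 CPM in wild-type libraries. T and NK cell markers summed to at most 1.22 CPM, with Cd3e, Cd3g and Ncr1 at 0 in wild-type at 4 h.

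Nlrc4 (ENSMUSG00000039193, chr17:74425438-74459142, minus strand), the protein that assembles the ring, had the largest genotype difference of the 4 members at 4 and 8 h in the fit of group means. In wild-type cells it stood at 13.1, 12.97 and 8.32 CPM at 0 h, at 59.2, 57.0 and 51.9 CPM after 4 h of LPS, and at 98.5, 93.3 and 115 CPM after 8 h. The 24 h values were 29.9, 29.8 and 59.9 CPM. Every wild-type library with LPS was thus above all wild-type libraries without it, and the 8 h libraries were the highest of all. The log2 difference from untreated was 2.29 ± 0.27 (SE) at 4 h, 3.16 ± 0.28 at 8 h and 1.80 ± 0.27 at 24 h. At 24 h the wild-type library of the second set was the highest, and without it the difference was 1.37.

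In labelled knock-out cells Nlrc4 took another course. The untreated libraries held 18.9, 14.01 and 20.4 CPM, and the 4 h libraries held 9.97, 9.87 and 9.33 CPM. All 3 libraries at 4 h lay below all 3 untreated ones, a log2 difference of -0.87 ± 0.26. At 8 h the level was 37.9, 27.1 and 41.9 CPM, above every untreated library, with a log2 difference of 1.01 ± 0.26. The 24 h libraries, at 18.2 and 32.3 CPM, overlapped the untreated ones (0.51 ± 0.29), and without the higher of them, library 23, the difference was 0.035. Its direction turned with the library set as a further term (-0.19) and in the first library set alone (-0.10), and it was 0.91 without libraries 13, 16, 19 and 22, described above.

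**Figure D1:**
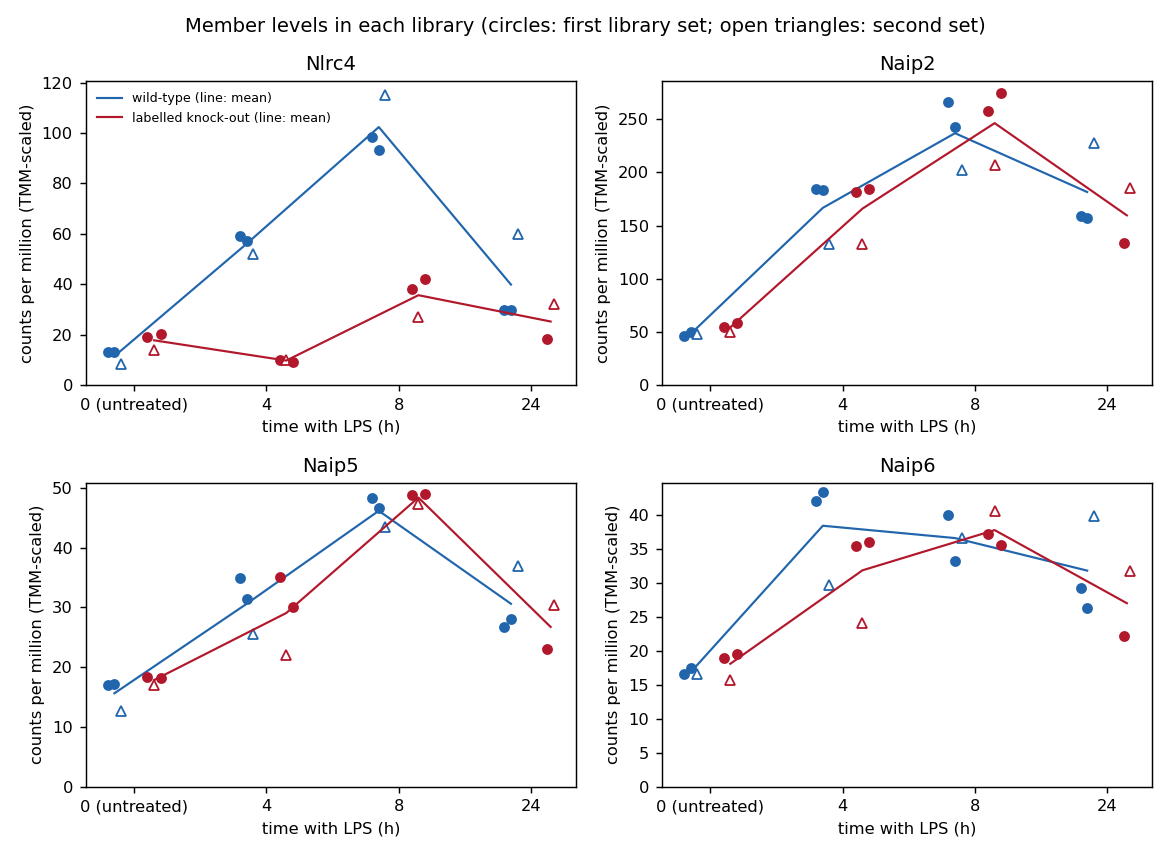
TMM-scaled CPM of Nlrc4, Naip2, Naip5 and Naip6 (vertical axes, from 0) in each of the 23 libraries by time with LPS (horizontal axis), wild-type in blue and labelled knock-out in red; points are libraries, lines join group means, and open triangles are the second library set. Nlrc4 separates the genotypes at 4 h (51.9 to 59.2 against 9.33 to 9.97 CPM) and 8 h, while the Naip points of both genotypes overlap at every time with LPS.

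Between the genotypes, Nlrc4 was lower in the labelled knock-out at 4 and 8 h of LPS. At 4 h the mean was 9.73 ± 0.34 CPM (SD, n = 3) against 56.0 ± 3.76 CPM (SD, n = 3) in wild-type, and the labelled knock-out libraries stood at 16.7 to 17.8% of the wild-type mean. That is a log2 difference of -2.53 ± 0.27 (SE). At 8 h the means were 35.7 ± 7.65 and 102 ± 11.5 CPM (SD, n = 3 each), a log2 difference of -1.52 ± 0.26, with no overlap between the groups. At 0 h the order was the opposite, and every labelled knock-out library was above every wild-type library (0.63 ± 0.26), a difference that was not called. At 24 h the groups overlapped (-0.66 ± 0.29), a difference that was not called. Split by library set, the labelled knock-out library was the lower, at 18.2 against 29.8 and 29.9 CPM in the first set and 32.3 against 59.9 CPM in the second. The sets were found in these same counts and hold few libraries each, so this order was not tested and nothing is read from it. The difference of the 2 LPS responses was -3.16 ± 0.38 at 4 h, -2.15 ± 0.37 at 8 h and -1.29 ± 0.39 at 24 h on the log2 scale.

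Libraries 13, 16, 19 and 22 held the most Selenow of the labelled knock-out libraries at each time. Without them, the log2 genotype difference of Nlrc4 was -2.55 at 4 h and -1.57 at 8 h. At 24 h, where 1 labelled knock-out library was left, it was -0.30, and the difference of the LPS responses was -0.89. The difference of the responses at 8 h was then -2.15 and no longer called. Library 16, whose Selenow was at the wild-type level, held 9.97 CPM of Nlrc4 at 4 h, next to 9.87 and 9.33 CPM in the libraries with low Selenow. In the first library set alone the difference was -2.58 at 4 h and -1.27 at 8 h, and between the single libraries of the second set it was -2.39 and -2.09. The neutrophil marker sums were higher in every labelled knock-out library than in every wild-type library of the same time. The stromal sums were high in some labelled knock-out libraries, and the lowest of these at each time lay within the wild-type range. The part of either in the Nlrc4 difference was not tested. In RNA from whole cultures, fewer cells of a type and less RNA per cell cannot be told apart.

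**Figure D2:**
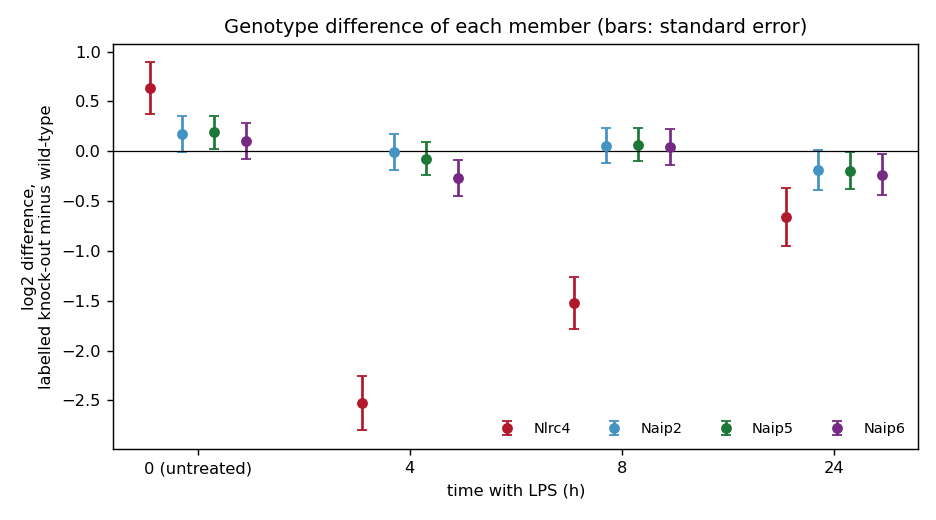
Log2 difference, labelled knock-out minus wild-type (vertical axis), of each member at 0, 4, 8 and 24 h (horizontal axis); points are fitted differences and bars are standard errors. Nlrc4 lies at -2.53 at 4 h and -1.52 at 8 h, and the 3 Naip genes lie between -0.27 and 0.19 at all 4 times.

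Naip2 (ENSMUSG00000078945, chr13:100144063-100202092), the receptor of the secretion rod, was the most abundant member per kilobase of exon in every group. Wild-type libraries held 46.5, 49.7 and 48.3 CPM at 0 h, 184, 183 and 133 CPM at 4 h, 266, 242 and 202 CPM at 8 h, and 159, 158 and 228 CPM at 24 h. Labelled knock-out libraries held 55.1, 49.6 and 58.2 CPM at 0 h, 182, 132 and 184 CPM at 4 h, 258, 207 and 275 CPM at 8 h, and 134 and 185 CPM at 24 h. The libraries with LPS were above all untreated libraries of their genotype at each time, and the genotypes overlapped at all 4 times. The log2 LPS difference at 8 h was 2.30 ± 0.19 (SE) in wild-type and 2.18 ± 0.19 in the labelled knock-out. The genotype difference at 4 h was -0.0062 ± 0.18.

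Naip5 (ENSMUSG00000071203, chr13:100211739-100246323), a flagellin receptor, peaked at 8 h in both genotypes. In wild-type cells it went from 12.8 to 17.2 CPM at 0 h to 43.4 to 48.4 CPM at 8 h, a log2 difference of 1.56 ± 0.17. In the labelled knock-out it went from 16.9 to 18.3 CPM to 47.3 to 49.1 CPM, a log2 difference of 1.44 ± 0.17. The 8 h ranges of the 2 genotypes thus met. At 24 h both were lower again, at 26.8 to 37.0 CPM in wild-type and 23.1 and 30.4 CPM in the labelled knock-out.

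Naip6 (ENSMUSG00000078942, chr13:100281121-100317674), the other flagellin receptor, had the smallest range. Wild-type libraries held 16.5 to 17.4 CPM at 0 h, 29.7 to 43.3 CPM at 4 h, 33.2 to 40.0 CPM at 8 h and 26.3 to 39.8 CPM at 24 h. Labelled knock-out libraries held 15.7 to 19.5, 24.1 to 36.0, 35.5 to 40.6, and 22.2 and 31.8 CPM at the same times. Unlike Nlrc4, it was already near its highest level at 4 h in wild-type cells, with a log2 difference of 1.19 ± 0.18 at 4 h and 1.12 ± 0.18 at 8 h, which do not differ beyond their errors.

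A gene was called when its edgeR quasi-likelihood p, adjusted by the Benjamini-Hochberg method over all 18083 genes, was below 0.05. In wild-type cells all 4 members were called higher at 4, 8 and 24 h, where 28.2%, 30.3% and 27.8% of all tested genes were. In labelled knock-out cells 3 members were called higher at 4 h (28% of all genes) and Nlrc4 was called lower (34.1%). All 4 were called higher at 8 h (28.3%), and the 3 Naip genes but not Nlrc4 at 24 h (22.6%). Between the genotypes, Nlrc4 was the 1 member called at 4 h (lower, 0.735% of all genes), at 8 h (lower, 1.4%) and averaged over the times (lower, 3.14%, at -1.02 ± 0.14). No member was called at 0 h or 24 h, where 1.52% and 1.19% of all genes were. At each of these 2 times 1 member was under an unadjusted p of 0.05, and DESeq2 and limma-voom also called none. With the library set as a further term 1 member was called at 0 h, 2 at 4 h and all 4 at 24 h, and all 4 for the difference of the LPS responses at 24 h. That set was found in these same counts, and many more of all tested genes were also called with it, as given below. For the difference of the LPS responses, Nlrc4 was 1 of the 8 genes called at 4 h (0.0442%) and 1 of the 8 called at 8 h (0.0442%). At 24 h edgeR called no gene (0%), with 1835 under an unadjusted p of 0.05, DESeq2 called 108 and limma-voom 2, and no member was called by any of the 3. The call at 8 h was lost in 14 of the 23 fits that left out 1 library, the call at 4 h in none. Since the members were named with these contrasts in view, nothing is read from these counts.

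Groups that do not overlap were common in these data. In wild-type cells 29.6%, 31.8% and 30.8% of all tested genes had every library at 4, 8 and 24 h above every untreated one. In labelled knock-out cells the shares were 30%, 31.3% and 33%, and 35.6% had every 4 h library below. Between the genotypes, 10.6% had every labelled knock-out library above at 0 h, 5.34% below at 4 h and 10.1% below at 8 h.

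Levels of different genes were compared per kilobase of annotated exon. In untreated wild-type cells Naip2 stood at 9.94 ± 0.33 CPM per kb (SD, n = 3), Naip5 at 3.01 ± 0.48, Naip6 at 2.47 ± 0.07 and Nlrc4 at 2.39 ± 0.57. The last 3 did not differ beyond their spread. After 8 h of LPS the order was Naip2 at 48.9 ± 6.69, Nlrc4 at 21.3 ± 2.39, Naip5 at 8.87 ± 0.49 and Naip6 at 5.36 ± 0.49. In the labelled knock-out at 8 h, Nlrc4, at 7.42 ± 1.59, fell between Naip5 at 9.30 ± 0.18 and Naip6 at 5.53 ± 0.38. At 4 h in the labelled knock-out Nlrc4 was the lowest member, at 2.02 ± 0.07, below Naip6 at 4.66 ± 0.98.

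Expressed against its upstream receptors, the Nlrc4 level per kb in wild-type cells was 15.4 ± 3.29% of the summed Naip2, Naip5 and Naip6 level at 0 h (SD, n = 3), 25.8 ± 3.22% at 4 h, 34.3 ± 7.79% at 8 h and 16.8 ± 3.46% at 24 h. In the labelled knock-out it was 21.2 ± 2.46%, 4.67 ± 1.03%, 11.2 ± 1.27% and 12.2 ± 2.19% (n = 2). At 4 h the single libraries held 24.2, 23.6 and 29.5% in wild-type and 4.201, 5.86 and 3.96% in the labelled knock-out, with no overlap. This ratio divides out whatever scales all 4 genes in a library alike. The share of Naip2 in the sum was the steadier quantity, at 64.5 ± 2.28% and 64.8 ± 0.52% in untreated wild-type and labelled knock-out cells and 77.3 ± 1.77% and 77.2 ± 2.90% at 8 h.

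**Figure D3:**
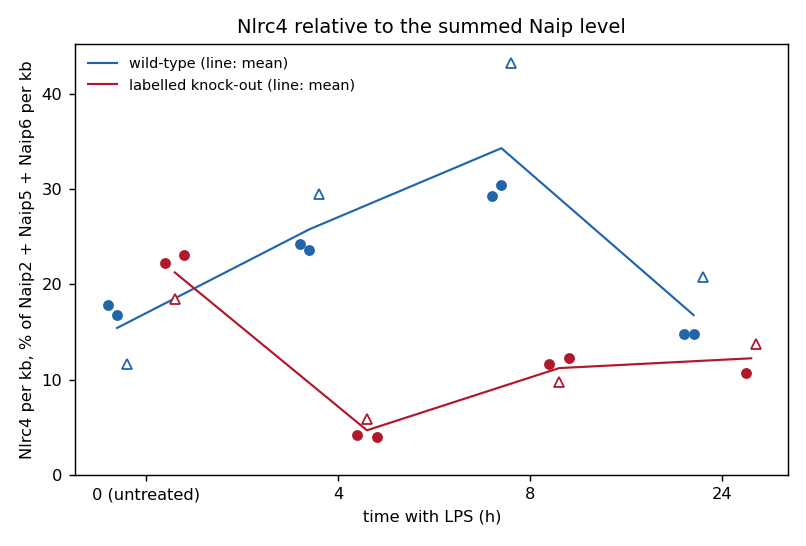
Nlrc4 level per kb as a percentage of the summed Naip2, Naip5 and Naip6 level per kb (vertical axis, from 0) in each library by time with LPS (horizontal axis), wild-type in blue, labelled knock-out in red; points are libraries, lines join means and open triangles are the second library set. The wild-type mean climbs from 15.4% to 34.3% at 8 h, and the labelled knock-out mean drops from 21.2% to 4.67% at 4 h.

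Across libraries, the log2 CPM of Nlrc4 followed that of the Naip genes in wild-type cells, with Pearson correlations of 0.93 with Naip2, 0.97 with Naip5 and 0.91 with Naip6 over 12 libraries. In the labelled knock-out they were 0.35, 0.52 and 0.29 over 11 libraries. The Naip genes correlated with each other in both, at 0.89 to 0.95 in wild-type and 0.92 to 0.93 in the labelled knock-out. These are descriptions, since libraries of a time share their treatment and the sets share their deviations.

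The remaining Naip genes of the cluster were expressed at low levels. Naip1, the needle receptor, averaged 0.23 CPM in untreated wild-type cells and 1.39 ± 0.61 CPM (SD, n = 3) at 8 h, and rose at 8 h by 2.59 ± 0.74 (log2, SE; edgeR adjusted p = 0.0050). Naip3 went from 0.46 to 4.82 ± 3.05 CPM over the same time. At 4 h Naip3 was at 1.15 ± 0.59 CPM in the labelled knock-out and 3.59 ± 1.60 CPM in wild-type (SD, n = 3 each). That log2 difference, -1.65 ± 0.66 (SE), was not called (edgeR adjusted p = 0.51). The groups did not overlap there, as for 5.34% of all tested genes, and they overlapped at 0, 8 and 24 h. Naip3-ps1, an annotated pseudogene copy, was lower in the labelled knock-out averaged over the times by -0.69 ± 0.19 (edgeR adjusted p = 0.040), at under 1.36 CPM in every library. NAIP copies resemble each other, and reads that fit several places were not counted under the stated settings. Of all windows of 100 bases, the read length, in the annotated transcripts, 4.44% of those of Naip2, 16.2% of those of Naip5 and 6.26% of those of Naip6 also occur in a transcript of another gene, mostly other Naip copies, and 0 of 4906 windows of Nlrc4 do. What those reads would add to the Naip levels was not tested. No member shares exonic bases with another annotated gene.

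The genes that act with the members responded to LPS in both genotypes and were not called between them by edgeR. Of 12 partner genes, 9 were called higher in wild-type cells at 4 h, 10 at 8 h and 9 at 24 h, where 1 was lower. In the labelled knock-out 9, 11 and 9 were higher, and 1 lower at 24 h. The median log2 difference of the 12 at 4 h was 1.43 in wild-type and 1.49 in the labelled knock-out, against -0.12 and -0.10 over all genes tested. In the 4 genotype comparisons and the 3 comparisons of LPS responses edgeR called none, with 0 to 3 at an unadjusted p below 0.05. DESeq2 called 1 at 0 h and none at the other times or for the LPS responses, and limma-voom called none. Averaged over the times edgeR and limma-voom called 0 of the 12, with 3 at an unadjusted edgeR p below 0.05, and DESeq2 called 1, Il18. With the library set as a further term in the fit, 2 were called at 0 h, none at 4 h, 2 at 8 h and 6 at 24 h.

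Casp1, the protease that NLRC4 activates, was not called between the genotypes by edgeR, but was lower in the labelled knock-out at 24 h with the library set as a further term (-0.39). It stood at 231, 241 and 166 CPM in wild-type and at 259, 151 and 221 CPM in the labelled knock-out at 4 h. Its log2 LPS difference at 4 h was 2.65 ± 0.26 (SE; edgeR adjusted p = 5.7e-08) and 2.39 ± 0.26 (edgeR adjusted p = 2.0e-07), and the genotypes differed by -0.015 ± 0.25 (edgeR adjusted p = 1). Gsdmd, the pore former, rose by 2.04 ± 0.15 at 8 h in wild-type cells (adjusted p = 2.2e-09) and by 2.05 ± 0.15 in the labelled knock-out (adjusted p = 2.4e-09). Pycard, the adaptor, was at 48.2 ± 0.60 and 51.1 ± 2.30 CPM (SD, n = 3) at 0 and 4 h in wild-type cells and fell by 1.195 ± 0.22 at 24 h on the log2 scale (adjusted p = 0.00012). At 8 h it was at 67.4 to 79.1 CPM in the labelled knock-out and 48.5 to 52.3 CPM in wild-type (0.56 ± 0.21, edgeR adjusted p = 0.22). Pycard was called there in edgeR fits of only the groups compared (0.56), without library 12 (0.57), in the first library set alone (0.59) and with the library-set term (0.56). Ninj1, which completes membrane rupture, passed the edgeR test in none of the 6 LPS comparisons. DESeq2 and RLE scaling called it at 8 h in wild-type cells (0.65 each), and the library-set term called it in both genotypes at 8 h (0.56 and 0.31) and 24 h (-0.45 and -0.78).

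The cytokines that caspase-1 matures had the largest rise of the partner genes at 4 h. Il1b went from 0.84 ± 0.74 CPM to 2594 ± 343 CPM (SD, n = 3) at 4 h in wild-type cells and from 2.70 ± 2.03 to 3510.2 ± 165 CPM in the labelled knock-out. Il18 went from 4.81 to 54.0 CPM and from 3.33 to 47.2 CPM at 4 h, log2 differences of 3.49 ± 0.22 (edgeR adjusted p = 2.6e-10) and 3.82 ± 0.23 (adjusted p = 1.1e-10). Averaged over the times, Il18 was lower in the labelled knock-out by -0.35 ± 0.11, which edgeR did not call (adjusted p = 0.058). DESeq2 called this difference (-0.36), as did edgeR without library 1 (-0.39), 10 (-0.40) or 20 (-0.40). It was also called with the library set as a further term (-0.37) and in the first set alone (-0.34).

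Among the regulators, Irf8 had the steepest early rise. Wild-type libraries held 196, 198 and 141 CPM at 0 h and 778, 874 and 1137 CPM at 4 h. Labelled knock-out libraries held 201, 139 and 242 CPM at 0 h and 794, 748 and 829 CPM at 4 h. The Irf8 ranges of the genotypes overlapped at 4 h, and the genotype difference of Irf8 was -0.23 ± 0.20 (log2, SE, edgeR adjusted p = 0.98). At 24 h Irf8 was at 378 to 392 CPM in the labelled knock-out and 237 to 327 CPM in wild-type. That difference, 0.41 ± 0.23, was not called (edgeR adjusted p = 0.50), but was called with the library set as a further term (0.47). The part of Irf8 in the Nlrc4 difference was not tested. Spi1 rose by 0.74 ± 0.12 at 4 h in wild-type cells (adjusted p = 2.3e-05) and by 0.97 ± 0.12 in the labelled knock-out (adjusted p = 1.1e-06). Lrrk2 and Prkcd encode kinases reported to phosphorylate NLRC4. Lrrk2 rose at each time in both genotypes, to 70.5 ± 35.9 CPM at 24 h in wild-type cells, and Prkcd rose at 8 h by 0.42 ± 0.16 (adjusted p = 0.028) in wild-type cells, a call lost under upper-quartile scaling (0.35) and without library 3 (0.29) or 8 (0.39).

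**Figure D4:**
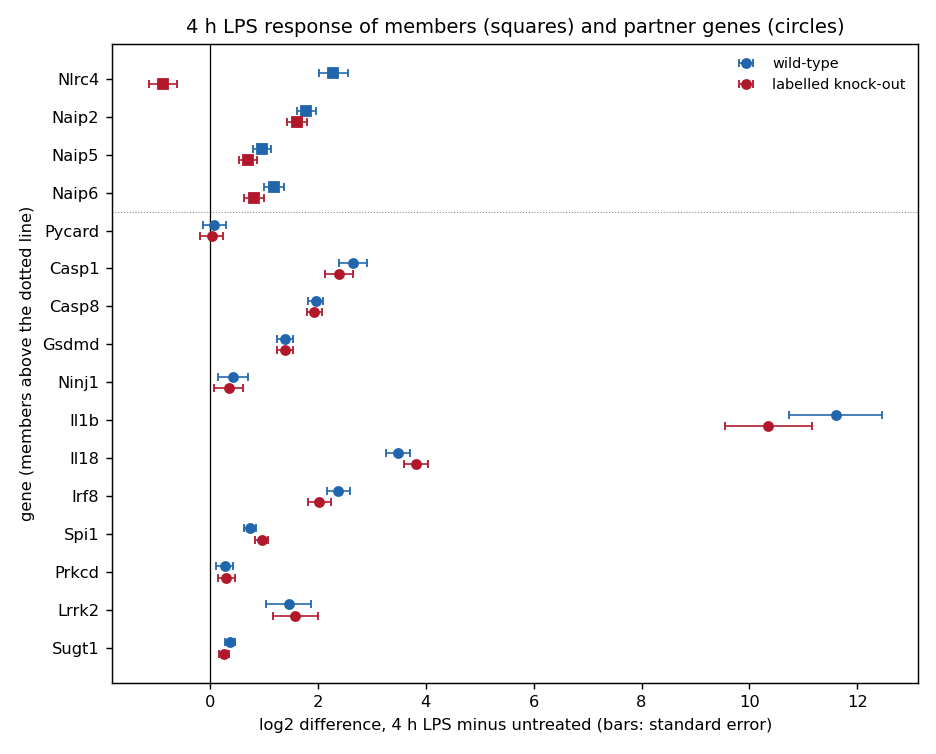
Log2 difference between 4 h of LPS and untreated cells (horizontal axis) for the 4 members (squares, above the dotted line) and 12 partner genes (circles) in wild-type (blue) and labelled knock-out cells (red); bars are standard errors. The Nlrc4 points lie on either side of 0, at 2.29 and -0.87, whereas Casp1 lies at 2.65 and 2.39 and Irf8 at 2.38 and 2.03.

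Sensors of other inflammasomes, listed together with the related receptors Nod1 and Nod2, were not called between the genotypes by edgeR either. Of the 8 tested of 9, 6 were called higher and 1 lower in wild-type cells at 4 h, and 6 higher and 1 lower at 8 h. Between the genotypes edgeR called none at 0, 4, 8 or 24 h, with 0 to 2 at an unadjusted p below 0.05, and DESeq2 and limma-voom also called none at single times. Averaged over the times DESeq2 called 1, Casp4 (0.85). With the library set as a further term 1 passed for untreated cells, 2 after 4 h, 1 after 8 h and 3 after 24 h. Nod1 was among these at 0, 4 and 24 h, and Nod2 at 24 h. Nlrp3 stood at 548 ± 8.51 CPM in wild-type and 619 ± 9.14 CPM in the labelled knock-out at 4 h (SD, n = 3 each), and the genotypes differed by 0.18 ± 0.16 (log2, SE; edgeR adjusted p = 0.98). Casp4, which senses LPS in the cytosol, was at 85.3 ± 24.9 and 153 ± 41.0 CPM at 4 h, a difference of 0.84 ± 0.57 (adjusted p = 0.92).

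The 5 genes whose log2 CPM was most like that of Nlrc4 over the 23 libraries, among 10411 tested genes with a mean of at least 5 CPM, were 9530082P21Rik (Pearson r = 0.89), Xdh (0.88), Birc6 (0.86), Kansl1l (0.85) and Gm26749 (0.83). Xdh, Birc6 and Gm26749 lie within 1 Mb of Nlrc4 on chromosome 17, and Gm26749 overlaps Birc6 on the other strand, so that unstranded counts of these 2 cannot be told apart. The genes most like the Naip members fitted more closely, with H2-T22 at 0.99 for Naip2, Mocs2 at 0.98 for Naip5 and Parp3 at 0.96 for Naip6. Gsdmd was among the 5 most like Naip5, at 0.97.

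The tested genes within 1 Mb of each locus, chosen by position, were also compared between the genotypes. Likeness and genotype difference come from the same 23 libraries, so the values of Xdh, Birc6 and Gm26749 are given with no p-value and neither supports the other. Around Nlrc4, 16 of 39 annotated genes were tested, and averaged over the times 4 were lower in the labelled knock-out and 2 higher, with 6.27% of all tested genes called in either direction. Xdh, which encodes xanthine dehydrogenase and lies 475242 bases away, had a higher mean than Birc6 and Gm26749 in every group. It stood at 669 ± 117 CPM in wild-type and 277 ± 84.5 CPM in the labelled knock-out at 4 h (SD, n = 3 each). Its log2 genotype difference was -1.28 ± 0.23 (SE) at 4 h, -1.09 ± 0.23 at 8 h and 0.12 ± 0.23 at 0 h. The call at 4 h was lost in a fit of only the groups compared (-1.29), and that at 8 h without libraries 13, 16, 19 and 22 (-1.13) and without library 7 (-1.01) or 20 (-0.99). The Xdh response differences were not called by edgeR, but DESeq2 called them at 4 h (-1.39) and 8 h (-1.23). Birc6, an inhibitor of apoptosis, differed by -0.35 ± 0.10 averaged over the times. That call was lost in 12 of the 23 fits without 1 library and without libraries 13, 16, 19 and 22. At 4 h Birc6 held 149 ± 9.68 CPM in the labelled knock-out and 246 ± 29.3 CPM in wild-type (SD, n = 3 each). DESeq2 called Birc6 (-0.72) and Gm26749 (-0.92) lower there, and edgeR called neither. The average difference of Gm26749, -0.52 ± 0.13, was likewise not called without those 4 libraries (-0.46). Of genes singled out after their values were seen, Ehd3 was lower by -2.17 ± 0.51 on average (edgeR adjusted p = 0.013), and Ltbp1 was higher by 1.71 ± 0.37 (adjusted p = 0.0070), both at a mean under 2 CPM. The genes that flank Nlrc4 directly were not called by edgeR. Slc30a6, 1217 bases away, differed by -0.09 ± 0.06 on average (adjusted p = 0.50), and Yipf4, 30351 bases away, by -0.14 ± 0.07 (adjusted p = 0.34). With the library set as a further term Yipf4 was called on average (-0.15), untreated (0.23), and after 8 h (-0.41) and 24 h (-0.31) of LPS, and in the first set alone at 8 h (-0.35). Its difference of the LPS responses was called at 8 and 24 h with that term (-0.64 and -0.54) and in the first set alone (-0.59 and -0.48).

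**Figure D5:**
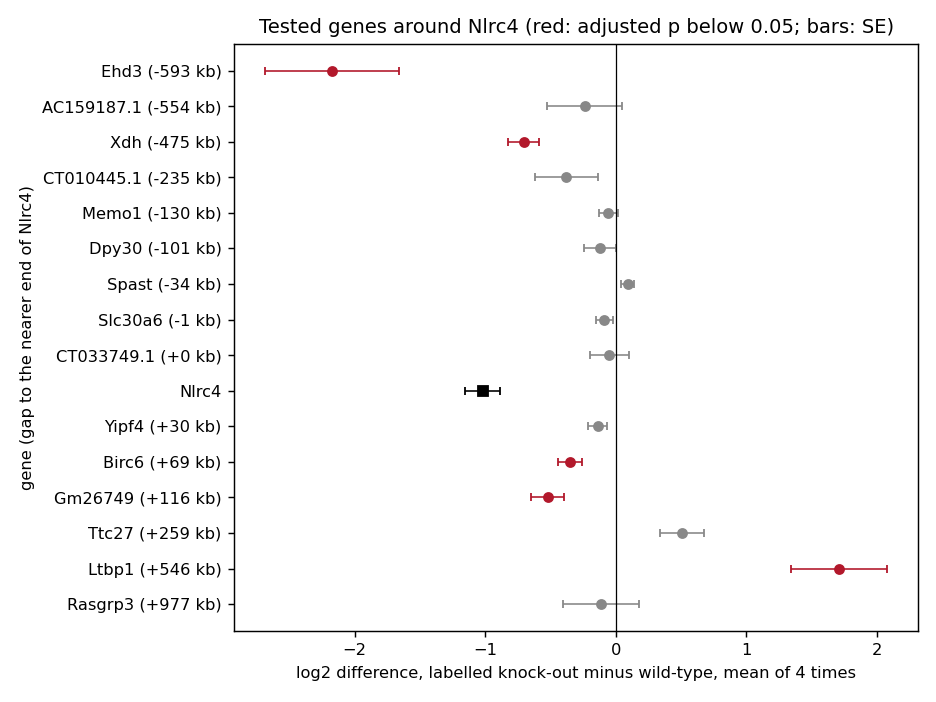
Log2 difference, labelled knock-out minus wild-type, averaged over the 4 times (horizontal axis) for Nlrc4 (black square) and the tested genes around it in order along the chromosome (vertical axis, gap to Nlrc4 in kb); red points passed the edgeR test, bars are standard errors, and AC151410.1 is left out because a group held no reads of it. Xdh, Birc6 and Gm26749 are lower with Nlrc4 (-0.71, -0.35 and -0.52), while the averages of Slc30a6 and Yipf4, beside Nlrc4, lie near 0. The average hides differences of unlike sign for Yipf4 in the fit with the library-set term: 0.23 untreated, -0.41 at 8 h and -0.31 at 24 h.

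Around the Naip cluster, 29 of 47 annotated genes were tested and edgeR called none of them between the genotypes at 0, 4, 8 or 24 h, with 1 to 3 at an unadjusted p below 0.05 and none called by DESeq2 or limma-voom. Averaged over the times, edgeR called Naip3-ps1, DESeq2 called 1 gene and limma-voom called none.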

How the data were processed

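Gene counts were deposited by the authors as 1 table of whole-number fragment counts per gene, made with featureCounts 2.0.1 from paired reads, per the file header, on Ensembl release 101 of GRCm38, without regard to strand, with fragments that overlap several genes counted for each and multi-mapping reads not requested. HISAT2 and DESeq2 are named in the submitters' processing notes, without versions. Of the 55401 identifiers, 55141 were paired with a symbol. Columns were assigned to samples by name.

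Counts were scaled by TMM and fitted in edgeR 4.0.16 as 8 group means over all 23 libraries with quasi-likelihood tests, genes filtered by filterByExpr and p-values adjusted by the Benjamini-Hochberg method over 18083 genes, threshold 0.05. Standard errors are the difference divided by the root of F. Log2 CPM for correlations used a prior count of 2. In counts simulated for the 4 h genotype comparison over 17176 genes, 68% of 100 genes changed 2-fold and 92% of 100 changed 4-fold were recovered. Alternatives used DESeq2 1.42.0 and limma 3.58.1 (voom). The members and gene lists were chosen with earlier results of these data known. Genes named besides the members are Naip copies, listed partners and sensors, neighbours within 1 Mb and the 5 genes most like each member. One listed partner gene is not reported here and was left out of the list. Promoters came from RefSeq (GRCm38.p6), and symbols and transcript windows from GENCODE mouse release 21.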

Additional observations from a re-analysis of the deposited data

Results flagged for a closer look

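Nlrc4 at 4 h of LPS moved in opposite directions in the 2 genotypes. Every wild-type library at 4 h was above every untreated wild-type library, and every labelled knock-out library at 4 h was below every untreated one. Of all tested genes, 29.6% lay above in wild-type cells in this way and 35.6% lay below in labelled knock-out cells. How many genes did both was not counted. The difference between the 2 responses was -3.16 on the log2 scale. The edgeR test called this difference, but the gene was named with this comparison in view, so no p-value is given and nothing is read from the call.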

How the results depend on the processing

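No paired analysis was possible because the groups share no replicate numbers; the library set found in the data was fitted as a term in its place. Of 598 member differences recomputed under the other settings 559 moved by less than the spread between replicates, 39 moved by more and 0 that were called changed sign; of 1288 without 1 library 5 moved by more. The causes were not tested. Sign changes of differences that were not called, such as Nlrc4 in the labelled knock-out at 24 h, are not among these counts. That group has 2 libraries, which limits its precision.

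Nlrc4 lost no call between genotypes at 4 or 8 h in any setting. Naip5 in the labelled knock-out at 8 h was 1.496 under RLE scaling and DESeq2, 1.36 under upper-quartile scaling and 1.38 with the library set as a further term at every time. That term gave LPS differences at 24 h in wild-type of 1.25 for Nlrc4, 1.69 for Naip2 and 0.67 for Naip6, and in the labelled knock-out of -0.19 for Nlrc4, 1.26 for Naip2, 0.27 for Naip5 and 0.25 for Naip6. The first set alone gave 2.45 for Naip2 in wild-type at 8 h; at 24 h 1.22 for Nlrc4 and 0.71 for Naip5 in wild-type, and -0.10 for Nlrc4, 1.25 for Naip2, 0.35 for Naip5 and 0.22 for Naip6 in the labelled knock-out; and -0.20 for the Naip6 response difference at 8 h. Without libraries 13, 16, 19 and 22, Naip5 in the labelled knock-out at 24 h was 0.79 and the Naip6 response difference at 24 h was -0.064. With the 3 Naip members summed, their LPS difference at 4, 8 and 24 h was 1.55, 1.99 and 1.60 in wild-type and 1.33, 1.88 and 1.24 in the labelled knock-out.

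Members called between genotypes with the set term were 1 at 0 h, 2 at 4 h, 4 at 24 h, 2 on average and 4 for the response difference at 24 h; in the first set alone they were 1 at 0 h, 1 at 24 h and 2 for the response difference at 24 h. For the response difference at 8 h no member was called in a fit of only the groups compared or without libraries 13, 16, 19 and 22. Neither setting called any gene there. Genes called between genotypes at 0, 8 and 24 h were 548, 660 and 436 by DESeq2. A fit of only the groups compared called 101 at 0 h and 34 at 24 h. Without libraries 13, 16, 19 and 22 the counts were 113, 144, 179 and 93 at 0, 4, 8 and 24 h, 591 on average and 5015 for LPS at 24 h in the labelled knock-out. With the set term they were 2467, 842, 2931 and 3530, and 4321 on average; in the first set alone 1199, 674, 2650 and 998, and 2440 on average. Genes called for the response difference at 4, 8 and 24 h were 37, 177 and 108 by DESeq2, 4, 0 and 1 in only the groups compared, 158, 2302 and 2957 with the set term, and 68, 1667 and 787 in the first set; without libraries 13, 16, 19 and 22 they were 3 at 4 h and 0 at 8 h. At 24 h they were 1 under RLE scaling, 8 with no filter, 3 with at least 1 CPM in 3 libraries and 2 by limma-voom.

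Leaving out 1 library at a time, the LPS difference at 24 h in the labelled knock-out ranged from 0.035 to 0.87 for Nlrc4, 1.31 to 1.77 for Naip2 and 0.38 to 0.77 for Naip5, the lowest without library 23, and the members called there from 1 to 4. The response difference at 24 h ranged from -0.61 to -0.14 for Naip2 and from -0.62 to -0.10 for Naip6. Genes called ranged from 4920 to 8182 for LPS at 24 h in the labelled knock-out, from 132 to 316, 226 to 500 and 122 to 282 between genotypes at 0, 8 and 24 h, and from 4 to 9, 0 to 20 and 0 to 5 for the response difference at 4, 8 and 24 h. Members called for the response difference at 8 h ranged from 0 to 1. Of the 5 genes most like a member by Pearson, Spearman shared 1 for Naip2, 2 for Naip5 and 0 for Naip6. Of 11986 recomputed differences of tested partner, sensor and neighbour genes, 112 lost and 156 gained a call and 0 that were called changed sign.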
